A study of Mus musculus with 4 samples.

Results

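The histone genes were the 41 genes of a 10716-gene count table whose symbols begin with Hist1h to Hist4h, H2af, H3f3 or H1f, the older mouse names for histone genes. They comprised 31 genes of the replication-dependent histone clusters, the clustered linker histone gene Hist1h1c, which was kept apart from the other 31, and 9 replacement variants. The clustered genes were 4 for H1, 4 for H2A, 12 for H2B, 6 for H3 and 5 for H4. The counts came from RNA sequencing of erythroid cells sorted from mouse fetal liver at embryonic day 14.5 by a yellow fluorescent protein reporter, R26eYFP. There were 2 libraries labelled KO, from C57BL/6 embryos described as an Adar knockout driven by Epor-Cre, a Cre recombinase active in erythroid cells, with the genotype written as Epor-Adar / +. There were 2 libraries labelled WT, from C57BL/6 embryos of the same age described as controls and as wild type. No drug or other treatment is labelled, and all 4 libraries came from cells positive for the reporter. The labels number the KO libraries 1 and 2 and the WT libraries 3 and 8. They do not say whether each library is 1 embryo. Y-linked counts, given below, differed between the KO libraries, so these were not drawn from the same embryo. A p-value here speaks only of how these 4 libraries scatter, which may be partly technical.

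Histones are the proteins around which DNA is wound, with H2A, H2B, H3 and H4 forming the nucleosome core and H1 binding the linker DNA. The replication-dependent genes lie in clusters, mostly lack introns, are expressed chiefly while DNA is copied, and give mRNAs that usually end in a stem-loop bound by the protein SLBP instead of a poly(A) tail. The replacement variants are expressed through the cell cycle from polyadenylated mRNAs. In the erythroid lineage, chromatin is condensed as the cells mature, before the nucleus is expelled.

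The sequence feature that sets the clustered genes apart was read from the genome (build NCBIM37) in the 150 bases after each annotated stop codon. The motif searched on the coding strand was an arm GGNNNT, a loop TNTN and an arm ANNNCC in direct succession, with all 6 bases of the arms pairing. It was found in 28 of the 30 clustered genes that could be searched, in Hist1h1c and in 1 of 7 searched replacement variants, H2afx, against 67 of 22380 protein-coding genes (0.299%). The 2 searched clustered genes without a match were Hist2h2bb and Hist2h2be, which says only that these letters were not in the window. The stem-loop began 25 to 59 bases after the stop codon, with a median of 31.5. There were 7 distinct sequences, and 1 of them was shared by 21 genes, Hist1h1c and the 4 other clustered H1 genes among them. The stretches below show 30 bases around the stem-loop of the genes on which the results turn. The 6 bases of each stem arm are in capitals.
Hist1h1c: caaaaGGCTCTtttcAGAGCCaccactccc
Hist1h1e: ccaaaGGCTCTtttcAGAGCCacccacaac
Hist1h2be: ccaaaGGCTCTtttcAGAGCCacccaacag
Hist3h2ba: ccaaaGGCTCTtttcAGAGCCaccttccaa
Hist1h3g: ttaaaGGCTCTtcttAGAGCCacccatctt
Hist1h4i: ttaaaGGCCCTttttAGGGCCaccacaaaa
Hist1h4m: ctaaaGGCCCTtttcAGGGCCatccaatta
H2afx: acaaaGGCCCTtttaAGGGCCaccacctcc
Hist1h1c and Hist1h1e have the same stem and loop.

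The promoters, taken from RefSeq on build GRCm38.p6 as 250 bases before to 50 bases after the start, were found for 37 of the 41 genes, in 38 windows. CCAAT on either strand was in 26 of 30 windows of clustered genes including Hist1h1c (86.7%), in 5 of 8 windows of replacement variants (62.5%) and in 37.4% of all 32851 promoters. TATAAA on either strand was in 18 of the 30 clustered windows (60%), in 1 of 8 replacement windows (12.5%) and in 13.6% of all promoters. AAACACA, known as an element of H1 promoters, was in 4 of 5 windows of clustered H1 genes, in 1 of 25 windows of clustered core histone genes and in 7.18% of all promoters, on either strand. TTTNGCGC, a form of the E2F site, was in 3 of the 30 clustered windows and in 1.38% of all promoters. A match is a description of letters and not a binding site. The windows of Hist1h1c and Hist1h1e are shown because both hold AAACACA and CCAAT at similar distances from the start, while the levels of both genes ran differently across the libraries. Capitals mark the H1 element (AAACACA), then the CCAAT match and, in Hist1h1e, the match to the TATA box searched.
Hist1h1c: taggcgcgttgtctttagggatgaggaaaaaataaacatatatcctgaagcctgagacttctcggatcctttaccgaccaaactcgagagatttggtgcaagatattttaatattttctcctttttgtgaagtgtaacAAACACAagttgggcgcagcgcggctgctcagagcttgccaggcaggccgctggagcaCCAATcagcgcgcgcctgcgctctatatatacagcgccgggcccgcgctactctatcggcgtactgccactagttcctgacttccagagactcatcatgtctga
Hist1h1e: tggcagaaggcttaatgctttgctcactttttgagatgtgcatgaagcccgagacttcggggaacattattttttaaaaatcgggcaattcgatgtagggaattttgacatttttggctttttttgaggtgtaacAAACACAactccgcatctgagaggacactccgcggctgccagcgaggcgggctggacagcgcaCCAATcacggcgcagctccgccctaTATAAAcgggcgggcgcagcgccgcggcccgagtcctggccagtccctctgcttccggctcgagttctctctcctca
In Hist1h1c, AAACACA began 112 bases and CCAAT 54 bases before the start, and TATAAA had no match. In Hist1h1e they began 115, 52 and, for TATAAA, 27 bases before it.

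The libraries held 32452155 and 38124687 counts for KO and 28356401 and 44016809 counts for WT. KO replicate 1 stood apart from the other 3 libraries in most clustered histone genes, and was the highest library for 4380 of all 10716 genes. Levels and sums are therefore given for each library. Fitted values are also given without KO replicate 1 where that turns them or moves them by over 1.5 times. In bulk RNA, fewer cells of a type and less RNA per cell cannot be told apart. Adar, the gene named in the knockout, had 67.1 and 102 CPM (counts relative to the TMM-scaled library total) in KO libraries against 50.9 and 46.9 CPM in WT libraries, which does not check the labels, and KO and WT are used below as the labels of the libraries. Counts of 4 Y-linked genes went against the labelled sex in 3 of the 4 libraries. They summed to 382 CPM in KO replicate 1 and 0.078 CPM in KO replicate 2, against 203 and 226 CPM in WT. The KO libraries thus also differed in Y-linked counts, which KO replicate 2 alone almost lacked. The 10 erythroid markers summed to 70200 and 70800 CPM in KO libraries against 100400 and 66410 CPM in WT libraries. Their median difference from the WT mean was −0.38 in KO replicate 1 and −0.11 in KO replicate 2 (log2 CPM). Of the 10, 2 were highest in KO replicate 1 and 8 in WT replicate 3. The neutrophil markers (4 of 6 in the table, with Elane and Ctsg not in it) summed to 171 CPM in KO replicate 1, 24.0 CPM in KO replicate 2, and 26.4 and 28.1 CPM in WT. Among the other markers, the 7 macrophage genes, all in the table, summed to 7.83 and 16.7 CPM in KO against 38.7 and 18.6 CPM in WT. Megakaryocyte genes (4 of 5 in the table) summed to 140 and 89.2 CPM in KO against 43.0 and 75.5 CPM in WT. The 5 hepatoblast genes summed to 56.5 and 64.8 CPM in KO against 118 and 46.9 CPM in WT. Rn7sk, an RNA without a poly(A) tail that was singled out after its values were seen, had 75.6 CPM in KO replicate 1, 3.29 CPM in KO replicate 2, and 0.508 and 1.08 CPM in WT. The 25 snoRNA genes in the table summed to 84.8 and 68.3 CPM in KO against 72.3 and 77.3 CPM in WT. The part of these differences in the histone results was not tested.

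Most clustered histone genes were far higher in KO replicate 1 than in the other 3 libraries, and KO replicate 2 lay near WT. Together the 31 clustered genes had 1164 CPM in KO replicate 1 and 299.9 CPM in KO replicate 2, against 256 CPM in WT replicate 3 and 582 CPM in WT replicate 8. The KO sum was therefore 2.78 times the WT mean in 1 library and 0.716 times it in the other, and the groups overlap. The 9 replacement variants summed to 1838 and 1857 CPM in KO against 2166 and 1883 CPM in WT, so that both KO sums lay below both WT sums, by less than the gap between the WT libraries. Hist1h1c had 132 and 145 CPM in KO against 229 and 275 CPM in WT. It was lower in both KO libraries than in either WT library.

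**Figure D1:**
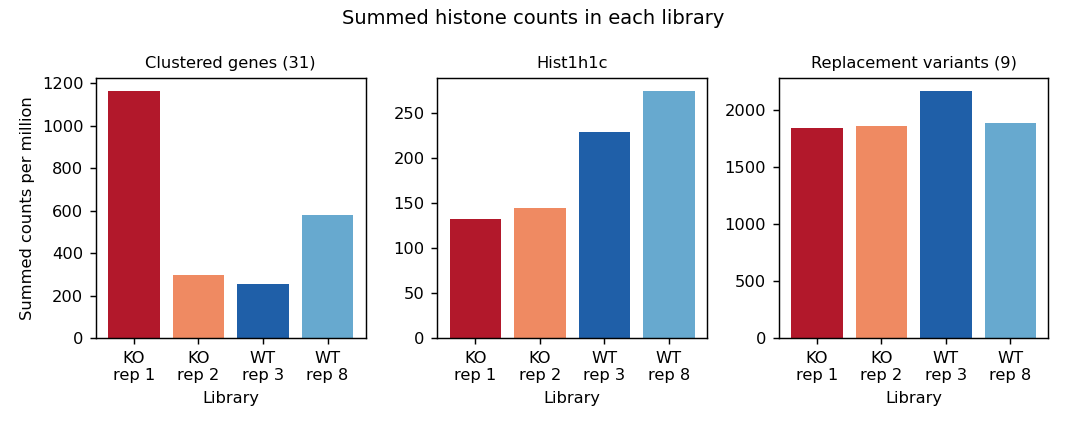
Summed CPM of the TMM-scaled library (vertical axes, starting at 0, with a scale of its own for each panel) in the 4 libraries, for the 31 clustered genes, Hist1h1c and the 9 replacement variants. KO replicate 1 stands at 1164 in the first panel, above the other 3 libraries, while in the second panel both KO libraries are below both WT libraries.

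Gene by gene, 28 of the 31 clustered genes were highest in KO replicate 1, as were 4380 of all 10716 genes. The other 3 (Hist1h2bc, Hist2h2be and Hist3h2a) were highest in WT replicate 8, as were 2369 of all genes. In 21 of the 31, KO replicate 1 was at least 4-fold above every other library, as was so for 92 of all 10716 genes (0.859%) and for none of the replacement variants or Hist1h1c. These 21 made up 22.8% of the 92 genes. Of the 21, 7 were in the table only through KO replicate 1, since they were above 1 CPM in fewer than 2 of the other libraries, and so had to be higher in it. Among the 24 clustered genes not so selected, 14 stood apart in this way, against 62 of 10471 such genes in the table (0.592%). The full 21 were 19 of the 25 clustered genes on chromosome 13, 2 of the 4 on chromosome 3 and neither of the 2 on chromosome 11. Just inside this limit stood Hist1h1b at 4.28-fold, and just outside it Hist3h2ba at 3.63-fold over the next library. KO replicate 2 was at least 4-fold above the rest for 1 gene of the whole table (0.00933%), which was not a histone gene. KO replicate 2 lay within the WT range for 17 of the 31 clustered genes, below both WT libraries for 11 and above both for 3. Over all 10716 genes KO replicate 2 lay within the WT range for 3219, above both WT libraries for 3718 and below both for the rest. The difference between the KO libraries (log2 of CPM with a prior count of 2, KO replicate 1 minus KO replicate 2) had a median of 3.23 over the clustered genes and ran from −0.91 in Hist2h2be to 5.17 in Hist1h4b. Only 30 of all genes (0.28%) reached that median, a number that by construction includes the clustered genes at or above it. Of the 31 clustered genes, 27 exceeded 1.08, the 95th percentile of all genes. These values include the 7 genes in the table only through KO replicate 1.

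**Figure D2:**
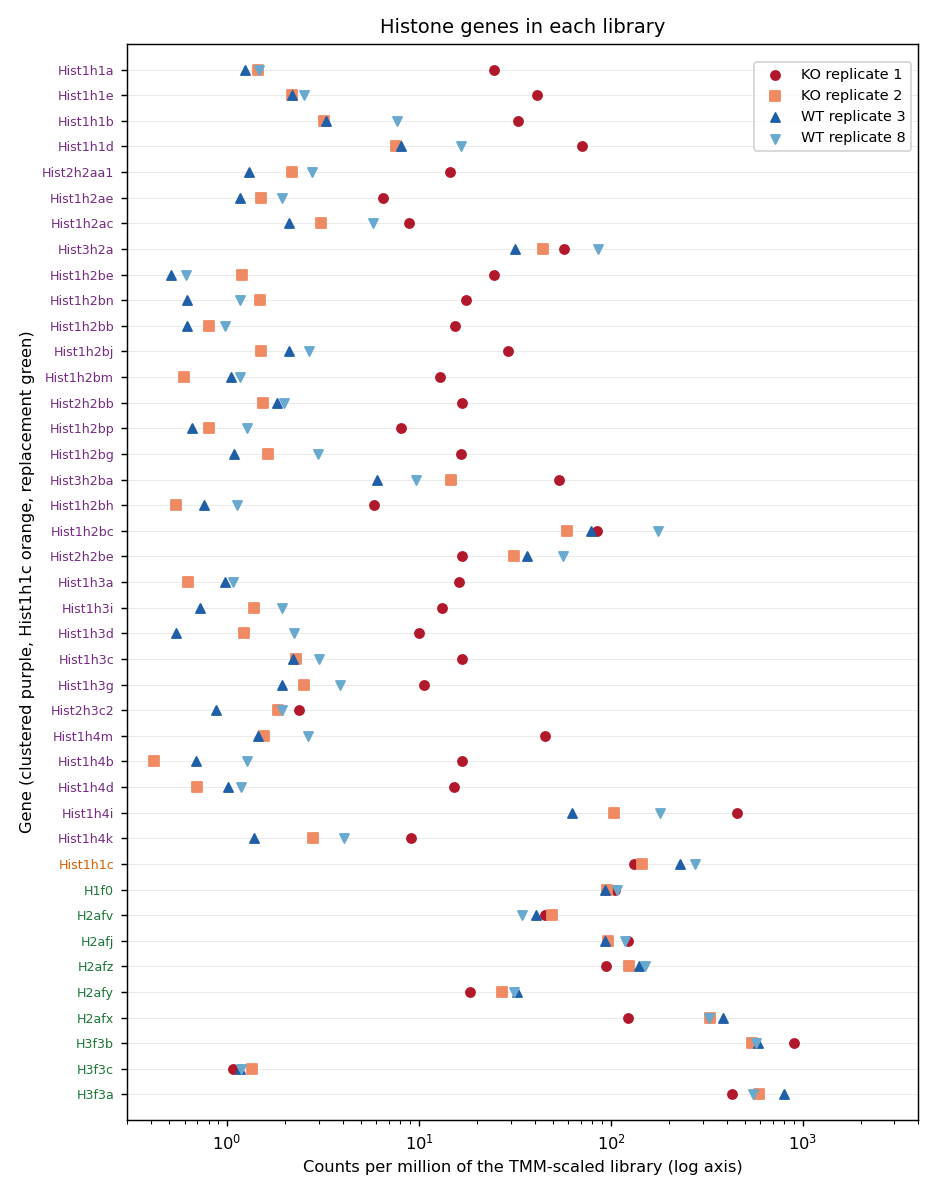
CPM of the TMM-scaled library (horizontal log axis) of each of the 41 histone genes (rows, with the clustered genes at the top by histone type, then Hist1h1c, then the replacement variants), with 1 point for each library. For most clustered genes the point of KO replicate 1 is far to the right of a close group of 3 points, and for Hist1h1c both KO points are to the left of both WT points.

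No histone gene passed the test over all genes. With edgeR's quasi-likelihood test and Benjamini-Hochberg adjustment, 0 of 41 had an adjusted p under 0.05, where 11 of all genes passed as higher (0.103%) and 0 as lower (0%). At an unadjusted p under 0.05, 7 of the 31 clustered genes were higher (background 9.82%), and Hist2h2be and Hist1h1c were lower (background 2.08%). The 7 were Hist1h1a, Hist1h1e, Hist1h2bb, Hist1h2be, Hist1h2bn, Hist1h4m and Hist3h2ba. Of these, Hist1h2bb and Hist1h2be were in the table only through KO replicate 1, and so had to be higher in it. Every clustered count and median in this paragraph includes the genes so selected. DESeq2 called 3 clustered genes higher (background 3.29%), which were Hist1h2bb, Hist1h2bn and Hist3h2ba, and called Hist1h1c lower (background 0.196%). The likelihood ratio test of edgeR called Hist1h2be and Hist3h2ba higher (background 3.09%) and Hist1h1c lower (background 0.168%), and limma-voom called none (background 0.0747% higher and 0% lower). The median log2 fold change, KO over WT, was 2.12 for the clustered genes, −0.01 for the replacement variants and −0.00 for all genes. It was positive in 28 of 31 clustered genes and 4 of 9 replacement variants (background 50%). Over all genes the median without KO replicate 1 was −0.01, with 5145 of 10716 genes positive. Without KO replicate 1 the clustered median was −0.29, with 8 of 31 genes positive and a range from −1.27 to 1.07, and no histone gene was called (background 1.29% higher and 0.0467% lower). None was called without WT replicate 3 (background 0.373% higher and 0.00933% lower) or without WT replicate 8 (background 0.233% higher and 0.0187% lower). Without KO replicate 2 the median was 2.78, and edgeR called 23 clustered genes higher (background 17.3%) and 5 histone genes lower (background 15.3%), in a fit where the lone KO library is assumed to vary like the WT libraries. The 5 were Hist2h2be, Hist1h1c, H2afx, H2afy and H2afz.

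**Figure D3:**
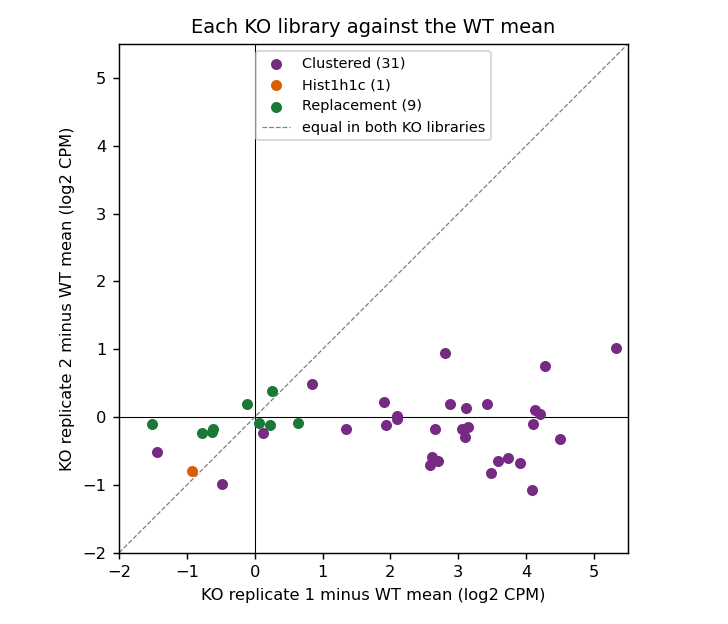
Difference of KO replicate 1 (horizontal axis) and of KO replicate 2 (vertical axis) from the mean of the WT libraries, in log2 CPM, for each histone gene. The clustered genes spread to the right along the zero line of the vertical axis, away from the dashed line of equal values, with a median of 3.06 in KO replicate 1 and −0.17 in KO replicate 2.

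The linker histone genes in the clusters split into 4 that were high in KO replicate 1 and Hist1h1c, which was not. Hist1h1a, which encodes the linker histone H1.1, had 24.5 CPM in KO replicate 1 and 1.45 CPM in KO replicate 2, against 1.23 and 1.46 CPM in WT. Hist1h1e, which encodes H1.4, had 40.9 and 2.18 CPM in KO against 2.18 and 2.51 CPM in WT. For both, 3 libraries sat within a narrow band and KO replicate 1 alone was high, at 16.8 and 16.3 times the next library. Their log2 fold changes were 3.26 ± 1.19 and 3.19 ± 1.21 (SE), with adjusted p = 0.413 and 0.419 in edgeR, and without KO replicate 1 they were 0.10 and −0.11. Hist1h1d, for H1.3, had 70.6 and 7.59 CPM in KO against 8.01 and 16.5 CPM in WT. Hist1h1b, for H1.5, had 32.9 and 3.19 CPM in KO against 3.26 and 7.69 CPM in WT. In these 2 genes KO replicate 1 was again the highest library and KO replicate 2 lay below both WT libraries, and the log2 fold changes of 1.67 and 1.71 became −0.70 and −0.80 without KO replicate 1. As a sum, the 4 clustered H1 genes had 169 and 14.4 CPM in KO against 14.7 and 28.1 CPM in WT.

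Hist1h1c, for the linker histone H1.2, lies on chromosome 13 at 23830676 to 23832235 (NCBIM37), in the same cluster as those 4. Its mean was 138 ± 8.92 CPM in KO and 252 ± 32.0 CPM in WT (SD, n = 2 each), a log2 fold change of −0.87 ± 0.20 (SE). The unadjusted p was 0.00505 and the adjusted p 0.280 in edgeR's quasi-likelihood test, so the difference did not pass over all genes. DESeq2 gave an adjusted p of 0.0128 and edgeR's likelihood ratio test 0.0302. The difference was −0.80, −0.94, −0.99 and −0.74 without KO replicate 1, KO replicate 2, WT replicate 3 and WT replicate 8. Its sign could not turn in these fits, since both KO libraries lay below both WT libraries, as in 26.7% of all genes. Hist1h1c was the most counted clustered H1 gene. Per kilobase of annotated exon it had 84.7 and 92.8 CPM in KO against 147 and 176 CPM in WT, where Hist1h1e had 54.7 and 2.91 CPM per kilobase in KO against 2.91 and 3.36 in WT. Its annotated transcript runs 879 bases past the stop codon and has AATAAA in its last 50 bases, while Hist1h1e's ends 83 bases past the stop codon without it. The length did not divide these genes, since Hist1h1d, highest in KO replicate 1, runs 3097 bases past the stop codon, also without AATAAA there. H1f0, the replacement linker histone H1.0 that accumulates in differentiated cells, had 105 and 94.9 CPM in KO against 93.4 and 108 CPM in WT, and its groups overlap.

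**Figure D4:**
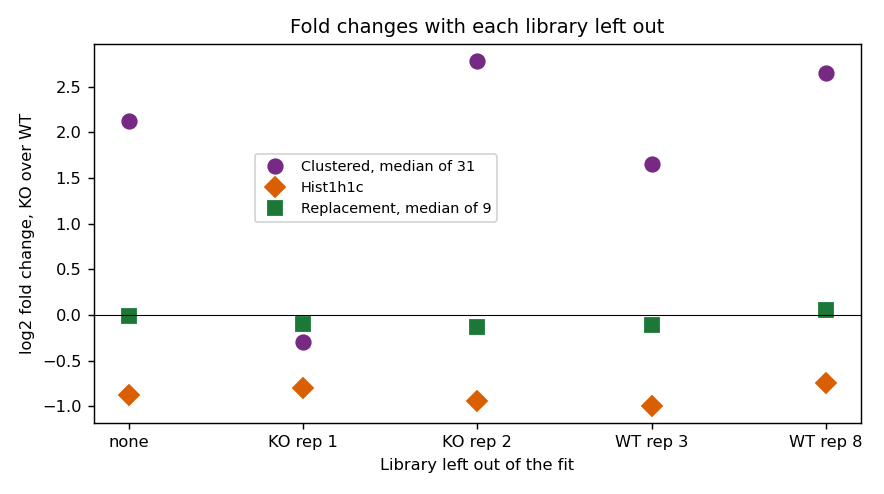
Log2 fold change, KO over WT, from edgeR (vertical axis) with no library or 1 library left out of the fit (horizontal axis), for the median of the 31 clustered genes, for Hist1h1c and for the median of the 9 replacement variants. The clustered median is −0.29 without KO replicate 1 and at least 1.65 otherwise, while Hist1h1c stays between −0.99 and −0.74.

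The 4 clustered H2A genes, for a subunit of the nucleosome core, summed to 86.5 and 51.1 CPM in KO against 36.3 and 96.3 CPM in WT, and did not separate the groups. Hist3h2a, the most counted, had 56.7 and 44.3 CPM in KO against 31.8 and 85.8 CPM in WT. Hist1h2ac had 8.91 and 3.08 CPM in KO against 2.10 and 5.79 CPM in WT. The groups overlap in both genes, and Hist1h2ac was highest in KO replicate 1. The log2 fold changes were −0.22 ± 0.46 for Hist3h2a and 0.59 ± 0.67 for Hist1h2ac (SE), and −0.41 and −0.38 without KO replicate 1. Hist2h2aa1 was the 1 clustered H2A gene at least 4-fold higher in KO replicate 1 than in every other library, and all of its 50-base words also occur elsewhere in the genome, so its counts may be shared with its copy. Its log2 fold change was 2.0, and 0.07 without KO replicate 1. Hist3h2a overlaps the gene Trim17 and Hist1h2ac a 5S rRNA gene, and the strand of the libraries is not given in the sources used here.

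The 12 clustered H2B genes, for the partner of H2A in the core, held the genes with the smallest p-values among the clustered genes and also the clearest exceptions. Hist1h2be had 24.6 CPM in KO replicate 1 and 1.19 CPM in KO replicate 2, against 0.508 and 0.613 CPM in WT. Both KO libraries were above both WT libraries, but KO replicate 2 stood at 1.19 CPM and KO replicate 1 was 20.6 times the next library. Its log2 fold change was 4.50 ± 1.35 (SE) with an adjusted p of 0.358 in edgeR, and 1.07 without KO replicate 1. Before TMM scaling it was the only histone gene at or under 1 CPM in both WT libraries (background 1.64%), and its annotated span overlaps Gm11398. Hist3h2ba had 53.6 and 14.8 CPM in KO against 6.06 and 9.59 CPM in WT. Its groups do not overlap, and its log2 fold change of 2.12 ± 0.62 (SE, edgeR adjusted p = 0.354) was 0.90 without KO replicate 1. Hist1h2bn had 17.5 and 1.48 CPM in KO against 0.616 and 1.16 CPM in WT, again with both KO libraries higher. Hist1h2bb had 15.3 and 0.803 CPM in KO against 0.616 and 0.972 CPM in WT, with KO replicate 2 between the WT libraries. Hist1h2bb and Hist1h2be were in the table only through KO replicate 1, and so had to be higher in it. Without KO replicate 1 the log2 fold change of Hist1h2bn was 0.69 in place of 3.38, and that of Hist1h2bb −0.01 in place of 3.31. Hist1h2be, Hist1h2bn and Hist3h2ba were the 3 clustered genes whose KO libraries were both above both WT libraries, and with H2afv they made 4 of the 41 histone genes (background 27.4%).

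Hist2h2be, an H2B gene on chromosome 3 without a stem-loop match, ran the other way. It had 16.6 and 31.4 CPM in KO against 36.4 and 56.2 CPM in WT, so that both KO libraries were below both WT libraries. In edgeR this was −0.95 ± 0.37 on the log2 scale (SE), with an adjusted p of 0.419, and −0.56 without KO replicate 1. Hist2h2bb, the other searched clustered gene without a match and also an H2B gene on chromosome 3, was instead highest in KO replicate 1. It had 16.7 and 1.53 CPM in KO against 1.81 and 1.99 CPM in WT. Its log2 fold change was 2.26, and −0.32 without KO replicate 1. Hist1h2bc, the most counted H2B gene, had 84.3 and 59.2 CPM in KO against 78.8 and 176 CPM in WT, and its groups overlap. Its log2 fold change was −0.83 ± 0.41 (SE), and −1.11 without KO replicate 1. Hist2h2be and Hist1h2bc have annotated ends with AATAAA in the last 50 bases. Genes with both KO libraries below both WT libraries were Hist2h2be, Hist1h1c, H2afy and H2afz, 4 of 41 (background 26.7%).

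The 6 clustered H3 genes, for the core histone with the most heavily modified tail, summed to 69.1 and 9.85 CPM in KO against 7.25 and 14.0 CPM in WT. Hist1h3c had 16.6 and 2.28 CPM in KO against 2.21 and 3.0 CPM in WT, and Hist1h3g had 10.6 and 2.51 CPM in KO against 1.92 and 3.87 CPM in WT. In each, KO replicate 1 was the highest library and KO replicate 2 lay between the WT libraries. Their log2 fold changes of 1.85 ± 0.86 and 1.16 ± 0.72 (SE) became −0.20 and −0.22 without KO replicate 1. The smallest difference among the H3 genes was in Hist2h3c2, annotated as a pseudogene on NCBIM37, with 2.38 and 1.84 CPM in KO against 0.870 and 1.92 CPM in WT. Its log2 fold change was 0.57, and 0.36 without KO replicate 1.

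The 5 clustered H4 genes, which encode the core partner of H3, held the largest share of clustered counts in KO replicate 1, and less than the H2B genes in the other 3 libraries, as the H2B sums of 301 and 115 CPM in KO against 130 and 255 CPM in WT show. They summed to 539 and 109 CPM in KO against 67.2 and 188 CPM in WT. Hist1h4i alone had 452 and 104 CPM in KO against 62.7 and 179 CPM in WT. KO replicate 2 was between the WT libraries, and the log2 fold change of 1.20 ± 0.77 (SE) was −0.22 without KO replicate 1. Without Hist1h4i the sum of the other 30 clustered genes was 712 and 196 CPM in KO against 193 and 403 CPM in WT. Hist1h4m had 45.5 and 1.56 CPM in KO against 1.45 and 2.64 CPM in WT. Its log2 fold change came to 3.50 ± 1.38 (SE), at an adjusted p of 0.419 in edgeR, and to −0.42 without KO replicate 1. Of its 50-base words 89.8% occur elsewhere in the genome, so its counts are uncertain between copies. Such sharing was common, since 20 of the 31 clustered genes had at least 25% of their words elsewhere. The median log2 fold change was 1.98 in the other 11 and 2.15 in those 20.

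The replacement variants had log2 fold changes from −0.65 to 0.33 with all 4 libraries, and from −1.54 to 0.63 without KO replicate 2, and none was at least 4-fold higher in KO replicate 1 than in the other libraries. H3f3a and H3f3b encode the same protein, the replacement histone H3.3. H3f3a had 429 and 588 CPM in KO against 795 and 549 CPM in WT. H3f3b had 899.8 and 544 CPM in KO against 584 and 568 CPM in WT. KO replicate 1 was the lowest of the 4 libraries for H3f3a and the highest for H3f3b, and the log2 fold changes were −0.40 ± 0.29 and 0.33 ± 0.30 (SE), and −0.19 and −0.08 without KO replicate 1. H3f3a overlaps Gm16067 and Gm17275, and H3f3c, annotated as a pseudogene, had 1.08 and 1.35 CPM in KO against 1.16 and 1.18 CPM in WT.

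H2afx, which encodes H2A.X, the variant phosphorylated at DNA breaks, was the only replacement variant with a stem-loop match. It had 123 CPM in KO replicate 1 and 330.0 CPM in KO replicate 2, against 385 and 324 CPM in WT. KO replicate 1 was low and the other 3 libraries lay close together, the reverse of the order in the clustered genes. In edgeR this came to −0.65 ± 0.45 on the log2 scale (SE), with an adjusted p of 0.503, to −0.10 without KO replicate 1, and to −1.54 without KO replicate 2, where the adjusted p was 0.00277. H2afz, for H2A.Z, which marks promoters, had 93.7 and 125 CPM in KO against 140 and 150 CPM in WT. H2afy, for macroH2A1, a variant of silent chromatin, had 18.5 and 27.1 CPM in KO against 32.3 and 31.4 CPM in WT. Both were below WT in both KO libraries, with log2 fold changes of −0.41 ± 0.21 and −0.48 ± 0.25 (SE), each with an edgeR adjusted p of 0.439, and of −0.22 and −0.23 without KO replicate 1. H2afv, for a second H2A.Z protein, had 45.1 and 49.3 CPM in KO against 40.9 and 34.6 CPM in WT. H2afj had 122 and 97.1 CPM in KO against 92.9 and 118 CPM in WT. The KO libraries were both higher for H2afv, at 0.32 ± 0.20 (SE), and overlapped WT for H2afj.

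Among clustered genes the gap between the KO libraries went with where the annotation ends the transcript. For the 15 clustered genes whose annotated end lay under 100 bases after the stop codon, the sums were 306 and 21.7 CPM in KO against 20.0 and 34.8 CPM in WT. For the 9 ending 100 to under 1000 bases after it they were 662 and 187 CPM in KO against 154 and 378 CPM in WT. For the 6 ending 1000 bases or more after it they were 194 and 89.2 CPM in KO against 80.6 and 167 CPM in WT. KO replicate 1 was at least 4-fold above every other library in 13 of the 15, 5 of the 9 and 3 of the 6. Leaving out the genes that are in the table only through that library, it was so in 8 of 10, 4 of 8 and 2 of 5. The median log2 fold changes of the 3 groups were 2.84, 1.98 and 1.13. These medians and the sums include the genes in the table only through KO replicate 1, which had to be higher in it. Such genes were most numerous in the group under 100 bases. Of the 5 clustered genes with AATAAA in the last 50 annotated bases 1 stood apart in this way, against 20 of the 25 without it, or 0 of 4 against 14 of 19 with the same genes left out. Hist3h2ba and another of the 5 were just outside the limit, at 3.63-fold and 3.39-fold over the next library. The median log2 fold changes were 1.36 for the 5 and 2.26 for the 25. These groups were formed with the values known and were not tested, and the annotated end is not the measured end of the RNA.

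**Figure D5:**
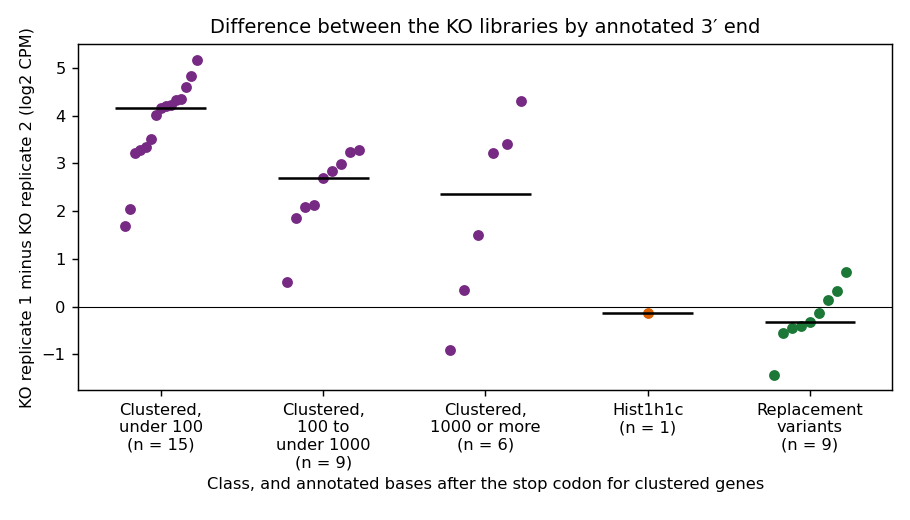
Difference between the KO libraries (vertical axis, log2 CPM with a prior count of 2, KO replicate 1 minus KO replicate 2) for each clustered gene by annotated bases after the stop codon, for Hist1h1c and for the replacement variants, with 1 point for each gene and a bar at the median. Hist2h3c2, which has no annotated stop codon, is not drawn. Genes in the table only through KO replicate 1 are drawn. Among the clustered genes the median is highest in the group under 100 bases, and Hist1h1c is at −0.13.

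The WT libraries also differed from each other in these genes. All 31 clustered genes had more CPM in WT replicate 8 than in WT replicate 3, as did 5723 of all 10716 genes. WT replicate 8 was at least 2-fold above WT replicate 3 in 13 of the 31 (background 1.86%). The median of WT replicate 8 minus WT replicate 3 was 0.84 on the log2 scale for clustered genes and −0.04 for the replacement variants. The clustered genes thus varied between libraries of the same label in both groups, more widely in KO. The level also bears on which genes are in the table, since a gene needed more than 1 CPM in 2 or more libraries to be there. Without KO replicate 1, 7 of the 31 clustered genes, all of them among the 21 that stood apart, would be above 1 CPM in fewer than 2 libraries (background 2.29%), and the 48 other annotated genes under the same naming rule were not analysed here.

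The genes that make, process and place histone mRNAs and proteins showed no call over all genes. Of 25 genes of histone mRNA transcription, 3′ end processing and decay, all 25 were in the table and 0 passed edgeR's test, with 1 higher and 0 lower at an unadjusted p under 0.05 (background 9.82% and 2.08%), a share no greater than in the whole table. That 1 was Zcchc11, a terminal uridylyltransferase, with 140 and 71.9 CPM in KO against 52.3 and 49.5 CPM in WT. Slbp, the stem-loop binding protein, had 303 and 412 CPM in KO against 443 and 406 CPM in WT, and Npat, the coactivator of the clusters, had 110 and 76.3 CPM in KO against 84.8 and 78.1 CPM in WT. KO replicate 1 was thus the lowest library for Slbp and the highest for Npat. Among the others by rank of p, Ncbp2, of the cap-binding complex, had a log2 fold change of −0.72 ± 0.32 and Zcchc6, a second uridylyltransferase, 0.59 ± 0.27 (SE). Without KO replicate 1 they were −0.35 and 0.27, Zcchc11 was 0.50 where it was 1.05 with all libraries, Slbp −0.04 in place of −0.25, and Npat −0.10 in place of 0.19.

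Of 33 histone chaperones and their partners, 31 were in the table and 0 passed edgeR's test, with 2 higher and 0 lower at an unadjusted p under 0.05, again no greater a share than the background of 9.82% and 2.08%. Hjurp, the chaperone of the centromeric H3 variant, had 826 and 411 CPM in KO against 296 and 292 CPM in WT, with both KO libraries higher. Vps72, of a complex that deposits H2A.Z, had a log2 fold change of 0.63 ± 0.25, and Hira, which deposits H3.3, −0.53 ± 0.23 (SE). Without KO replicate 1 the values were 0.48 for Hjurp, where it was 1.07 with all libraries, 0.35 for Vps72 and −0.29 for Hira. Of 25 S phase genes 24 were in the table, with 0 passing edgeR's test and 0 at an unadjusted p under 0.05, and 22 of the 24 had a negative log2 fold change, where 50% of all genes were positive. Their median log2 fold change was −0.28, and −0.08 without KO replicate 1. They summed to 7372 CPM in KO replicate 1 and 9619 CPM in KO replicate 2, against 10780 and 9708 CPM in WT. The library with the most clustered histone counts was thus the one with the lowest sum of S phase genes. Ccne1, cyclin E1, had 80.9 and 190 CPM in KO against 238 and 209 CPM in WT, and Gins1 and Gins2, of the replicative helicase, had log2 fold changes of −0.41 ± 0.23 and −0.36 ± 0.20 (SE). For Ccne1 it was −0.72, and without KO replicate 1 −0.24, with Gins1 at −0.19.

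In the authors' deposited table of KO against WT, the adjusted p-values of the 41 histone genes ran from 0.339 to 0.985, and 0 were under 0.05.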

How the data were processed

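RNA sequencing libraries of sorted fetal liver erythroid cells were analysed, 2 labelled KO and 2 labelled WT. The authors deposited raw counts per gene, whole numbers for 10716 genes, and a table of their comparison with a p-value and an adjusted p-value per gene; the deposited normalised values were not used. Tools in the submitters' processing notes include HTSeq, BWA 0.6.2, TopHat2 2.0.8, SAMtools 0.1.19, Trimmomatic 0.30 and Bowtie2 2.1.0.0, with no roles given, and the builds there are NCBIM37 and mm9. Strand, poly(A) selection and the handling of reads shared by paralogs are not given in the sources used here.

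Counts were fitted in edgeR 4.0.16 under R 4.3.3 (filterByExpr, which removed 0 genes, TMM scaling, estimateDisp, glmQLFit with robust=TRUE, glmQLFTest, two-sided). Calls needed a Benjamini-Hochberg adjusted p under 0.05 over the whole table. There were 2 residual degrees of freedom, the common biological coefficient of variation was 25.6%, and the script was tested on simulated data. The SE is the absolute log2 fold change divided by the square root of F. DESeq2 1.42.0 and limma 3.58.1 (voom) were alternatives, beside other scalings, filters, options and each library left out. With 2 against 2 libraries a two-sided permutation test cannot go below p = 0.333, so none was used.

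The histone genes were matched to GENCODE vM1 on NCBIM37, 38 by Ensembl identifier and 3 by symbol (H1f0, Hist1h2bm and Hist1h2bn, for which no level per kilobase is given). The members, the class limits and the lists were chosen with earlier results of these data known. Named are every histone gene with p under 0.05, Hist1h1c, all replacement variants, the 2 most counted clustered genes of each type and the 3 genes of smallest p in each other list. Hist2h2aa1, Hist2h2bb, Hist2h3c2, Hist1h4b, Slbp, Npat and Rn7sk are named outside that rule where a sentence turns on them.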

Additional observations from a re-analysis of the deposited data

How the results depend on the processing

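For all genes, edgeR's quasi-likelihood test called 11, against 374 in DESeq2, 349 in the likelihood ratio test, 41 with labelled sex as a covariate and 87 with no library scaling. With 1 library left out it called 27 to 3492. Histone genes called were 0, but 4 in DESeq2, 3 in the likelihood ratio test and 0 to 28 with 1 library left out. With 1 library left out, called genes ran from 0 to 5 in the histone mRNA processing list, 0 to 9 in the chaperone list and 0 to 6 in the S phase list, with the highest values without KO replicate 2. Hist1h1c passed in DESeq2 (−0.87, adjusted p = 0.0128) and in the likelihood ratio test (−0.87, adjusted p = 0.0302). With 1 library left out it ran from −0.99 to −0.74. It kept its sign in every fit run, which was fixed in advance by both KO libraries lying below both WT libraries. The clustered median ran from −0.29 to 2.78 with 1 library left out, and was 1.30 in limma-voom, 1.46 with labelled sex, 1.98 for genes with under 25% shared words and 2.84 for genes with a stem-loop and an annotated end under 100 bases after the stop codon, the last 2 limits chosen after seeing the data. These clustered medians include the genes in the table only through KO replicate 1. The replacement sum, 0.913 of WT, was 0.777 without H3f3b. With no library scaling H2afj was −0.02 and H3f3c −0.01, where with TMM they were 0.06 and 0.05.

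Signs turned in single genes when 1 library was left out, with these ranges.
The log2 fold change ran, for H2afj from −0.12 to 0.23, for H3f3b from −0.08 to 0.63, for Hist1h1b from −0.80 to 2.55, for Hist1h1d from −0.70 to 2.51, for Hist1h1e from −0.11 to 4.11, for Hist1h2ac from −0.38 to 1.49, for Hist1h2bb from −0.01 to 4.22, for Hist1h3c from −0.20 to 2.65, for Hist1h3g from −0.22 to 1.84, for Hist1h4i from −0.22 to 2.13, for Hist1h4m from −0.42 to 4.43, for H1f0 from −0.11 to 0.09, for H3f3c from −0.13 to 0.20, for Hist3h2a from −0.76 to 0.66, for Hist2h2bb from −0.32 to 3.12, for Hist1h4b from −1.27 to 4.04. Without KO replicate 1 it turned negative in 11 of the clustered genes described above. The replicate numbers gave no pairing, because the KO libraries carry the numbers 1 and 2 and the WT libraries 3 and 8. Labelled sex, which pairs the libraries across groups but goes against the Y-linked counts in 3 of 4, was fitted only as the covariate given above. With 2 libraries a group and 1 library that decides most clustered values, depth is not the limit for the abundant genes, while genes near 1 CPM rest on few counts.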
